A study of Mus musculus with 24 samples.

Results

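The change in the miRNA cargo of serum extracellular vesicles (EVs) between 6 h and 72 h after surgery was described by comparing the 6 S72h libraries with the 6 S6h libraries. Members were all mature miRNAs with at least 10 CPM, the count scaled by the library total, in at least 6 of these 12 libraries. This rule kept 266 of the 1966 miRNAs in the table, and 585 had at least 1 count in the 12 libraries. The 266 miRNAs held 99.7% of the counts. Of them, 137 reached 10 CPM in all 12 libraries. The rule did not use the direction of any change, but 1 member, miR-511-5p, passed only through the S6h libraries and 1, miR-5107-5p, only through the S72h libraries. miR-182-5p passed through the S6h libraries except replicate 3 and, of the S72h libraries, through replicate 4 alone.

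All mice were wild type C57BL/6, male and 14 to 16 weeks old, and each gave 1 library. S6h and S72h mice had an open fracture of the tibia, stabilized with a pin under isoflurane anaesthesia with buprenorphine, and differed in the hours between surgery and blood sampling. S72h and S24h mice received analgesia every day, and Control mice received saline and no surgery, so no group had anaesthesia alone. Control and S24h libraries, 6 each, served only to estimate the spread and to place the values. The Control libraries came from the animals kept beside the S6h mice, and a separate control set shared by the S24h and S72h mice was not analysed here. Time after surgery, days of analgesia and set of animals therefore cannot be told apart. EVs were isolated from serum with a precipitation and column kit. Vesicle proteins cannot be read from miRNA counts, so the vesicle origin of the RNA was not checked here.

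miRNAs are short RNAs that guide Argonaute proteins to messenger RNAs and lower their translation and stability. Pairing rests mainly on the seed, bases 2 to 8 of the mature miRNA, so that miRNAs with the same seed share many targets. Most are cut from a hairpin by Drosha and Dicer, which leaves a 5p and a 3p arm, and EVs carry some of them out of muscle, liver, blood cells and vessel walls into the serum. Serum EVs are a mixture, so fewer EVs from a cell type and less of a miRNA per EV cannot be told apart.

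Mature sequences were taken from the RefSeq miRNA records of GRCm38.p6, which matched 232 of the 266 miRNAs and 19 of the 26 that were called different between the groups. The 19 carried 19 distinct seeds. Sequences are shown 5′ to 3′ with the seed in capitals, first for miRNAs that were higher at 72 h, to show that their seeds differ.
miR-484: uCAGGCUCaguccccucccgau
miR-423-5p: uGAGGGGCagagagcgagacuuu
miR-423-3p: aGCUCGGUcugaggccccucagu
miR-186-5p: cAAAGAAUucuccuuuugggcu
miR-221-3p: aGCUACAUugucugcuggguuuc
let-7b-5p: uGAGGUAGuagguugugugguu
miR-191-5p: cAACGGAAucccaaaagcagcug
miR-140-3p: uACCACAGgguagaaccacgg
Lower miRNAs of the highest levels, and miR-434-3p, follow for the same reason.
miR-10b-5p: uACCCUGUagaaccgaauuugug
miR-16-5p: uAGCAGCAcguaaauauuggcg
miR-434-3p: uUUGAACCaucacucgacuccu
miR-22-3p: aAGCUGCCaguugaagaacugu
miR-30a-5p: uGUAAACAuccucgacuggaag
miR-27b-3p: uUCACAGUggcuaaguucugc
miR-29a-3p: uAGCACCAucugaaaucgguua
miR-125a-5p: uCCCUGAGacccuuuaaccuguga
miR-24-3p: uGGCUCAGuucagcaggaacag
The last sequence is shown because it has the seed of miR-221-3p and lies beside it in the genome.
miR-222-3p: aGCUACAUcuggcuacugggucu

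Both arms of miR-423 come from chr11:77078086-77078144 of GRCm38, on the minus strand within an intron of Nsrp1. The miR-186 arm lies at chr3:157544285-157544306 in an intron of Zranb2, and miR-140-3p at chr8:107551288-107551308 within an annotated exon of Wwp2. The miR-484 sequence is at chr16:14159630-14159651, on the strand opposite to Marf1 and within one of its introns. let-7b-5p is at chr15:85707325-85707346 in an exon of the non-coding RNA Lncppara, and miR-191-5p at chr9:108568325-108568347 in an exon of a long intergenic RNA. miR-221-3p lies at chrX:19146307-19146329, outside other annotated genes. Among the lower miRNAs, miR-10b-5p is at chr2:74726074-74726096 in introns of Hoxd3 and Hoxd4, and miR-434-3p at chr12:109594565-109594586, opposite to an exon of Rtl1. miR-27b-3p at chr13:63300760-63300780 and the first copy of miR-24-3p at chr13:63301251-63301272 are neighbours. A second copy of miR-24-3p lies at chr8:84208875-84208896, and miR-16-5p also has 2 copies, in introns of Dleu2 on chromosome 14 and Smc4 on chromosome 3. Reads of such copies cannot be told apart.

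The 12 libraries held from 102568 to 471801 counts in the S6h group and from 65017 to 245013 in the S72h group. In exact two-sided permutation tests adjusted over 3 library measures, the log2 totals differed by -0.86 (S72h minus S6h, n = 6 per group, adjusted p = 0.201). The number of miRNAs detected at a common depth of 65017 counts was 281 ± 31.3 at 6 h and 270 ± 28.5 at 72 h (SD, n = 6, exact permutation test, adjusted p = 0.799). The log2 ratio of miR-451a to miR-23a-3p, an index of red cell content, was -0.78 ± 0.31 and -0.73 ± 0.60 (SD, n = 6, exact permutation test, adjusted p = 0.883). For a miRNA without reads the upper limit was set at 3 counts, or 7.22 to 45.0 CPM of TMM-scaled size depending on the library, which covers counting error only. S72h replicate 4 stood apart, with 29.8% of its counts in miR-122-5p. S6h replicate 3 was the S6h library nearest to the S72h group for 19 of the 26 called miRNAs. Without it 35 miRNAs were called, while 13 were called without S6h replicate 4 or without S72h replicate 5, 14 without S6h replicate 6 and 17 without S6h replicate 5 or without S72h replicate 2.

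In the S72h group, the levels of miR-484, miR-320-3p, miR-221-3p, let-7b-5p, miR-191-5p and both arms of miR-423 were more than 2-fold those at 6 h. miR-143-3p fell by 2.64 on the log2 scale, and miR-10b-5p, miR-434-3p, miR-16-5p and miR-29a-3p also fell. Of the 266 miRNAs, 26 (9.77%) were called, which required a 1.5-fold change or more together with an edgeR adjusted p below 0.05. The calls comprised 12 higher (4.51%) and 14 lower (5.26%) miRNAs, among them miR-5107-5p and miR-511-5p, which had to differ to pass the filter and support nothing. At an unadjusted p under 0.05 there were 52, of which 23 were higher. The median log2 fold change of all 266 was 0.06, and other scaling methods placed it between -0.09 and 0.13. Values are CPM of library sizes scaled by the TMM method, and each mouse gave 1 library, so p-values measure the spread between these mice. Statements on overlap between groups hold on this scale, where S72h replicate 4 had a TMM factor of 0.60. By CPM of library totals the groups overlapped for miR-484, both arms of miR-423, miR-186-5p, miR-221-3p, miR-191-5p and miR-24-3p.

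**Figure D1:**
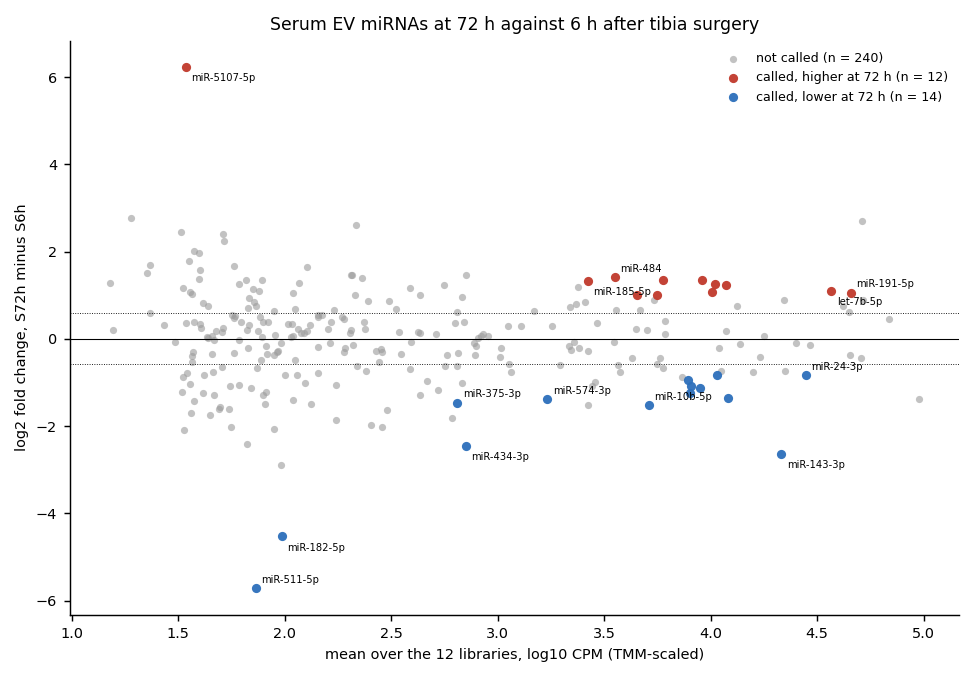
Log2 fold change (S72h minus S6h) of each of the 266 miRNAs against its mean level in log10 CPM over the 12 libraries, with called miRNAs in red (12 higher) and blue (14 lower) and dotted lines at a 1.5-fold change. The 3 called miRNAs with the largest fitted changes, miR-5107-5p, miR-511-5p and miR-182-5p, lie at low levels.

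miR-484, which is made from its own short capped transcript without Drosha, had from 1475 to 3081 CPM in the S6h libraries (median 1620). In the S72h libraries it had from 3539 to 7303 CPM (median 5025). All 6 S72h values were above all S6h values on the TMM scale, but not by library totals. The means were 1934 ± 618 and 5171 ± 1294 CPM (SD, n = 6), a log2 fold change of 1.42 (SE 0.30, edgeR adjusted p = 0.00281). miR-320-3p, which is likewise made without Drosha, ranged from 3428 to 7712 CPM (median 4864) at 6 h and from 6551 to 17593 CPM (median 13714) at 72 h. Its ranges overlapped by 1 S72h library, S72h values were all above the S6h median, and the log2 fold change was 1.35 (SE 0.29, edgeR adjusted p = 0.00281). These were the 2 tested members of a short Drosha-independent list, and both were called higher, beside 4.51% of all 266 miRNAs. The list left out other miRNAs that bypass Drosha. The arms of the mirtron miR-877, named after their values were seen, had log2 fold changes of 0.82 (5p, SE 1.40) and 0.54 (3p, SE 1.27) at low counts and were not called (edgeR adjusted p = 0.866 and 0.938). Their direction turned without S72h replicate 2 for the 5p arm (-0.69) and without S72h replicate 5 for the 3p arm (-0.22).

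The arms of miR-423 rose together. miR-423-5p ranged from 5131 to 11192 CPM (median 6451) in the S6h group and from 12433 to 24134 CPM (median 16270) in the S72h group. miR-423-3p ranged from 2212 to 5155 CPM (median 3371) and from 6522 to 12761 CPM (median 7684). For neither arm did the groups overlap on the TMM scale, but for both they did by library totals. The log2 fold changes were 1.23 (SE 0.26) and 1.34 (SE 0.29), each with an edgeR adjusted p of 0.00281.

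miR-186-5p was the tightest of the higher miRNAs at 72 h. It had from 6812 to 7793 CPM (median 7578) in the S72h libraries against 2402 to 5658 CPM (median 3547) in the S6h libraries, without overlap on the TMM scale alone. This is a log2 fold change of 1.0 (SE 0.23, edgeR adjusted p = 0.0049). miR-191-5p, the most abundant called miRNA, had from 23037 to 47035 CPM (median 26627) at 6 h and from 52036 to 72519 CPM (median 62441) at 72 h. The groups again did not overlap on the TMM scale but did by library totals, and the log2 fold change was 1.06 (SE 0.29, edgeR adjusted p = 0.0159). Both miRNAs are often used as references for small RNA. Of the 5 tested miRNAs of that reference list, 2 were called higher, beside 4.51% of all 266, and none lower, with a median log2 fold change of 0.80 beside 0.06 for all miRNAs. The summed level of the list was from 28516 to 59557 CPM at 6 h and from 66227 to 85437 CPM at 72 h. miR-103-3p was the qPCR reference of the study. It had from 895 to 2426 CPM at 6 h and from 2086 to 3551 CPM at 72 h, a log2 fold change of 0.80 that did not pass the threshold (SE 0.29, edgeR adjusted p = 0.073) but did with DESeq2 (adjusted p = 0.0187), with limma-voom and without S6h replicate 3.

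miR-221-3p, which restrains the receptor Kit and is strongly expressed in endothelium, ranged from 4146 to 11468 CPM (median 5087) at 6 h and from 11742 to 20226 CPM (median 14388) at 72 h. The groups did not overlap on the TMM scale but did by library totals, and the log2 fold change was 1.27 (SE 0.30, edgeR adjusted p = 0.00622). miR-222-3p, which lies beside it on the X chromosome and shares its seed as printed above, had from 1817 to 3946 CPM (median 2382) and from 1362 to 3108 CPM (median 2107). Its log2 fold change was -0.20 (SE 0.27, edgeR adjusted p = 0.786), and the difference between the 2 miRNAs was not tested. Of 5 tested members of the vascular list miR-221-3p was the only call, beside 4.51% called higher of all 266, and the median was 0.10.

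let-7b-5p belongs to the let-7 family, which restrains Ras, Hmga2 and Lin28. It had from 13525 to 31123 CPM (median 23001) at 6 h and from 22938 to 67508 CPM (median 53736) at 72 h. Of the 6 S72h values, 5 were above the S6h median, and the log2 fold change was 1.1 (SE 0.29, edgeR adjusted p = 0.0144). Of the tested miRNAs, 9 carry the let-7 seed GAGGUAG, with log2 fold changes from -0.09 to 1.2 and a median of 0.75. let-7b-5p was the only call among them in the edgeR fit, beside 4.51% called higher of all 266. DESeq2 called 4 others, among them let-7a-5p, let-7c-5p and let-7e-5p, the last of which, named after its values were seen, had a log2 fold change of 1.2 (SE 0.42, edgeR adjusted p = 0.0639). Leaving out S6h replicate 3 or S72h replicate 6 also gave calls of let-7c-5p and let-7e-5p, and leaving out S72h replicate 1 one of let-7e-5p. let-7a-5p, let-7c-5p and let-7f-5p, which were more abundant still, had log2 fold changes of 0.90, 0.75 and 0.61 (edgeR adjusted p = 0.121, 0.0793 and 0.385). let-7 miRNAs differ by few bases, and how reads that map to several of them were counted is not given in the sources used here.

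miR-140-3p, the cartilage-enriched miRNA within Wwp2, had from 4380 to 10482 CPM (median 5564) at 6 h and from 9390 to 17990 CPM (median 13795) at 72 h. All S72h values were above the S6h median and 2 of them lay within the S6h range, with a log2 fold change of 1.07 (SE 0.30, edgeR adjusted p = 0.0208). miR-185-5p ranged from 919 to 2777 CPM (median 1299) and from 2367 to 5209 CPM (median 3775), a log2 fold change of 1.33 (SE 0.38, edgeR adjusted p = 0.0255). miR-5107-5p had no count in any S6h library and from 1 to 10 counts in the S72h libraries. Against 3 counts per S6h library it was at least 3.85-fold higher at 72 h, which rests on few reads. It was admitted only by the S72h libraries, so this difference is a description and no p is given.

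The call was kept in all 12 fits with 1 library left out for 7 of the 12 higher miRNAs, namely miR-484, miR-423-5p, miR-320-3p, miR-423-3p, miR-186-5p, miR-221-3p and miR-191-5p. That of miR-186-5p was lost without a filter on low counts, and those of miR-186-5p and miR-191-5p without both libraries numbered 4. That of let-7b-5p was lost without S6h replicate 6 (adjusted p = 0.0509), and that of miR-185-5p without S6h replicate 4, 5 or 6 or S72h replicate 1 or 5 (up to 0.0635). miR-140-3p lost it without S6h replicate 1, 2, 4 or 5 or S72h replicate 1 or 5 (up to 0.0757).

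**Figure D2:**
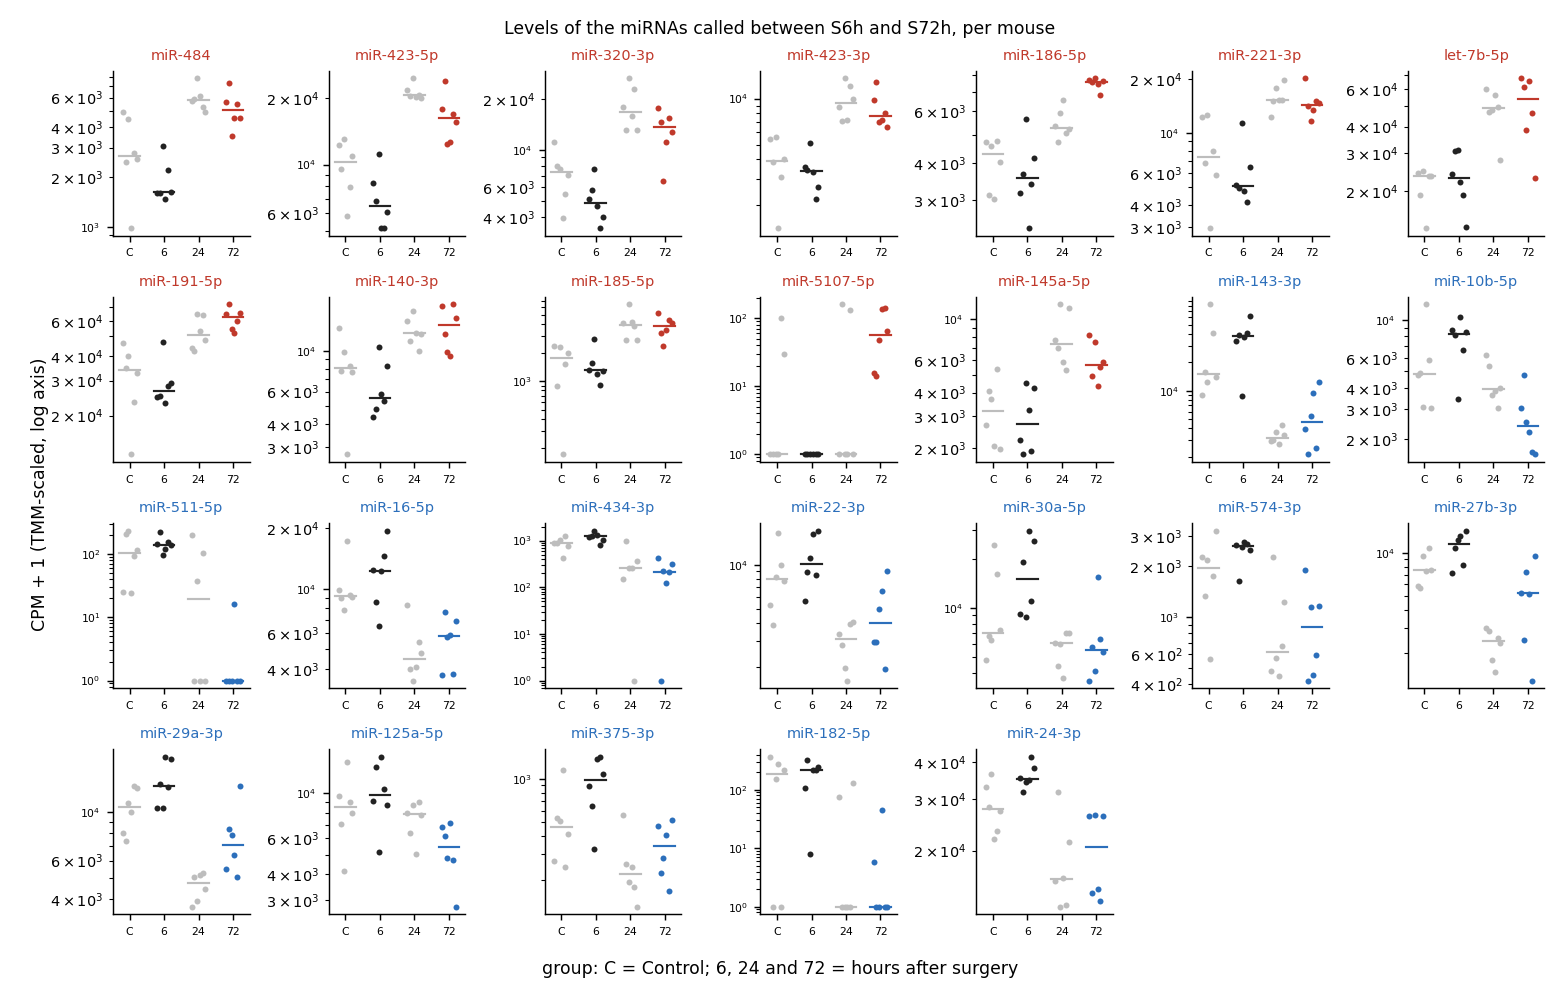
Level of each of the 26 called miRNAs in each mouse, as CPM + 1 on a log axis, in the Control, S6h, S24h and S72h groups (n = 6 each), with a line at the group median. S6h points are black, S72h points are red where higher and blue where lower than at 6 h, and Control and S24h points, outside the comparison, are grey.

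miR-143-3p had the lowest adjusted p of all 266 miRNAs. It is made with miR-145a from 1 transcript and is best known from smooth muscle of vessels. Its level ranged from 8890 to 62448 CPM (median 38118) in the S6h group and from 2120 to 12362 CPM (median 4648) in the S72h group. Only S6h replicate 3, the lowest of its group, overlapped with the S72h libraries. The means were 37033 ± 17146 and 5953 ± 4122 CPM (SD, n = 6), a log2 fold change of -2.64 (SE 0.49, edgeR adjusted p = 0.00157). miR-145a-5p took the other direction, with 1854 to 4507 CPM (median 2718) at 6 h and 4335 to 8245 CPM (median 5666) at 72 h. Its log2 fold change was 1.02 (SE 0.30, edgeR adjusted p = 0.0263), and the call was lost without any 1 of S6h replicates 1, 2, 4 and 5 and S72h replicates 1, 2, 3 and 5 (adjusted p up to 0.113). The 3p arm, miR-145a-3p, had a log2 fold change of -0.98 (SE 0.57, edgeR adjusted p = 0.363).

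miR-10b-5p lies within the Hoxd cluster. It ranged from 3446 to 10405 CPM (median 8288) at 6 h and from 1636 to 4738 CPM (median 2381) at 72 h. Each S72h value was below the S6h median, and the log2 fold change was -1.53 (SE 0.33, edgeR adjusted p = 0.00281). miR-10a-5p, which has the same seed and lies in the Hoxb cluster, had a log2 fold change of -0.67 (SE 0.26, edgeR adjusted p = 0.115) and was called lower without S6h replicate 3.

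miR-16-5p targets Bcl2 and cyclins. It had from 6561 to 19433 CPM (median 12278) at 6 h and from 3746 to 7630 CPM (median 5805) at 72 h, a log2 fold change of -1.13 (SE 0.29, edgeR adjusted p = 0.011). All S72h values were below the S6h median. Of the 6 tested miRNAs with its seed AGCAGCA it was the only call, beside 5.26% called lower of all 266. Their median was 0.10, beside 0.06 for all. Of the 9 tested miRNAs of the miR-15/16 family list, 6 had a negative log2 fold change, beside 47.7% of all, and the median was -0.37. miR-15b-5p, the next in abundance, had a log2 fold change of -0.26 (edgeR adjusted p = 0.716).

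miR-434-3p comes from the imprinted Dlk1-Dio3 region, whose miRNAs are expressed from the maternal chromosome. It had from 785 to 1640 CPM (median 1229) at 6 h and from 0 to 427 CPM (median 216) at 72 h, without overlap. S72h replicate 2 had no count. The log2 fold change was -2.45 (SE 0.63, edgeR adjusted p = 0.011). Of the 15 tested miRNAs of this region it was the only call, beside 5.26% called lower of all 266. Of the 15, 12 had a negative log2 fold change, beside 47.7% of all, and the median was -1.22. The summed level of the region ranged from 2777 to 4569 CPM at 6 h and from 393 to 2130 CPM at 72 h. miR-382-5p had from 278 to 524 CPM and from 0 to 345 CPM, a log2 fold change of -1.98 that did not pass the threshold (SE 0.85, edgeR adjusted p = 0.154), though it did with limma-voom and without S72h replicate 1.

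miR-511-5p, encoded within the gene of the macrophage mannose receptor Mrc1, had from 14 to 50 counts in the S6h libraries and at most 1 count in any S72h library. Against 3 counts per S72h library it was at least 4.40-fold lower. It was admitted only by the S6h libraries, so this difference is a description and no p is given. miR-182-5p had from 1 to 91 counts at 6 h and at most 3 at 72 h. Against 3 counts per S72h library its S6h mean was 5.68-fold higher, which is no lower limit, since S72h replicate 4 held 3 counts. miR-182-5p reached 10 CPM in the S6h libraries except replicate 3, and of the S72h libraries only in replicate 4. The filter thus admitted it mainly through the S6h libraries. Its call (edgeR adjusted p = 0.0405, no adjusted p in DESeq2) therefore supports little. Among the 12 fits with 1 library left out this call was kept in 2, those without S6h replicate 3 or S72h replicate 4. Of the 12 tested leukocyte miRNAs no other than miR-511-5p, whose difference the filter fixed, was called, beside 5.26% called lower of all 266. Of the 12, 7 had a negative log2 fold change, beside 47.7% of all, and the median was -0.12. Among them, miR-146a-5p had from 2901 to 5072 CPM at 6 h and from 848 to 3962 CPM at 72 h (log2 fold change -1.0, edgeR adjusted p = 0.0577). It was called lower by DESeq2 (adjusted p = 0.0265) and limma-voom and in other settings, among them leaving out S6h replicate 2, S72h replicate 1 or S72h replicate 6. miR-223-3p had a log2 fold change of -0.59 (edgeR adjusted p = 0.307).

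The miR-27b and miR-24 hairpins sit together on chromosome 13. miR-27b-3p ranged from 7167 to 14289 CPM (median 11502) at 6 h and from 1279 to 9431 CPM (median 5208) at 72 h, a log2 fold change of -1.09 (SE 0.33, edgeR adjusted p = 0.0307). miR-24-3p ranged from 31576 to 41679 CPM (median 35061) and from 13458 to 26401 CPM (median 20494), a log2 fold change of -0.83 (SE 0.27, edgeR adjusted p = 0.0486). miR-24-3p was the least changed of the calls, and its groups did not overlap on the TMM scale but did by library totals, while for miR-27b-3p 2 S72h values lay within the S6h range. Both were counted in a list of 9 tested miRNAs of the miR-23/27/24 clusters with no other call, beside 5.26% called lower of all 266. Of the 9, 6 had negative values, beside 47.7% of all, and the median was -0.37. miR-27a-3p, with the seed of miR-27b-3p, had a log2 fold change of -0.57 (edgeR adjusted p = 0.259), and miR-23a-3p, with 50871 ± 11096 and 39341 ± 19558 CPM (SD, n = 6), one of -0.37 (edgeR adjusted p = 0.633).

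miR-29a-3p represses collagens and other genes of the extracellular matrix. It had from 10443 to 17981 CPM (median 13262) at 6 h and from 5033 to 13230 CPM (median 7113) at 72 h. The log2 fold change was -0.84 (SE 0.26, edgeR adjusted p = 0.0342). The other miRNAs with its seed, miR-29b-3p and miR-29c-3p, had log2 fold changes of -1.30 and -1.62 on far fewer counts (edgeR adjusted p = 0.656 and 0.263). All S72h values of miR-29a-3p and miR-29c-3p were below the respective S6h medians.

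miR-30a-5p had from 8835 to 29898 CPM (median 15017) at 6 h and from 3568 to 15585 CPM (median 5530) at 72 h. Of the S72h values, 5 were below the S6h median, and the log2 fold change was -1.35 (SE 0.40, edgeR adjusted p = 0.0263). It was the only call of 8 tested miRNAs of the miR-30 family, beside 5.26% called lower of all 266, and the family's median was -0.52 beside 0.06 for all. The other abundant 5p arms, miR-30d-5p, miR-30c-5p and miR-30e-5p, had log2 fold changes of -0.75, -0.21 and -0.88 (edgeR adjusted p = 0.113, 0.716 and 0.0703). Without S6h replicate 3 or S72h replicate 4, and with limma-voom, miR-30d-5p and miR-30e-5p were called lower. miR-22-3p ranged from 5635 to 17123 CPM (median 10032) and from 1919 to 8969 CPM (median 3968), a log2 fold change of -1.25 (SE 0.37, edgeR adjusted p = 0.0263).

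The remaining lower miRNAs were miR-574-3p, miR-125a-5p and miR-375-3p. miR-574-3p, from an intron of Fam114a1, had from 1642 to 2772 CPM (median 2628) at 6 h and from 419 to 1909 CPM (median 873) at 72 h (log2 fold change -1.38, SE 0.42, edgeR adjusted p = 0.029). miR-125a-5p ranged from 5169 to 15045 CPM (median 9823) and from 2774 to 7095 CPM (median 5471), a log2 fold change of -0.94 (SE 0.29, edgeR adjusted p = 0.0342). The related miR-125b-5p had one of -0.43 (edgeR adjusted p = 0.555). miR-375-3p, a miRNA of pancreatic islets and endocrine epithelium, had from 324 to 1417 CPM (median 981) and from 167 to 512 CPM (median 343). Its log2 fold change was -1.46 (SE 0.46, edgeR adjusted p = 0.0371), and it was the only call of 7 tested epithelial miRNAs, beside 5.26% called lower of all 266, with a median of -0.77. For each of these 3 miRNAs all S72h values were below the S6h median.

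The calls of miR-143-3p, miR-10b-5p, miR-16-5p and miR-434-3p were kept in all 12 fits with 1 library left out, and that of miR-16-5p was lost without a filter on low counts. miR-22-3p and miR-27b-3p lost it without S6h replicate 4 or 6 or S72h replicate 2 or 5 (adjusted p up to 0.0807 and 0.0787). miR-30a-5p lost it without each of these 4 or S72h replicate 3 (up to 0.100). miR-574-3p lost it without S6h replicate 4, 5 or 6 or S72h replicate 2 or 5 (up to 0.0635), and miR-29a-3p without S6h replicate 4, 5 or 6 or S72h replicate 3 or 5 (up to 0.100). The call of miR-24-3p was lost without S6h replicate 1, 4, 5 or 6 or S72h replicate 2, 4 or 5 (up to 0.0964). That of miR-375-3p was lost without the same S6h replicates or S72h replicate 2, 3 or 5 (up to 0.108), and that of miR-125a-5p without S6h replicate 2, 4, 5 or 6 or S72h replicate 2, 3, 5 or 6 (up to 0.121).

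**Figure D3:**
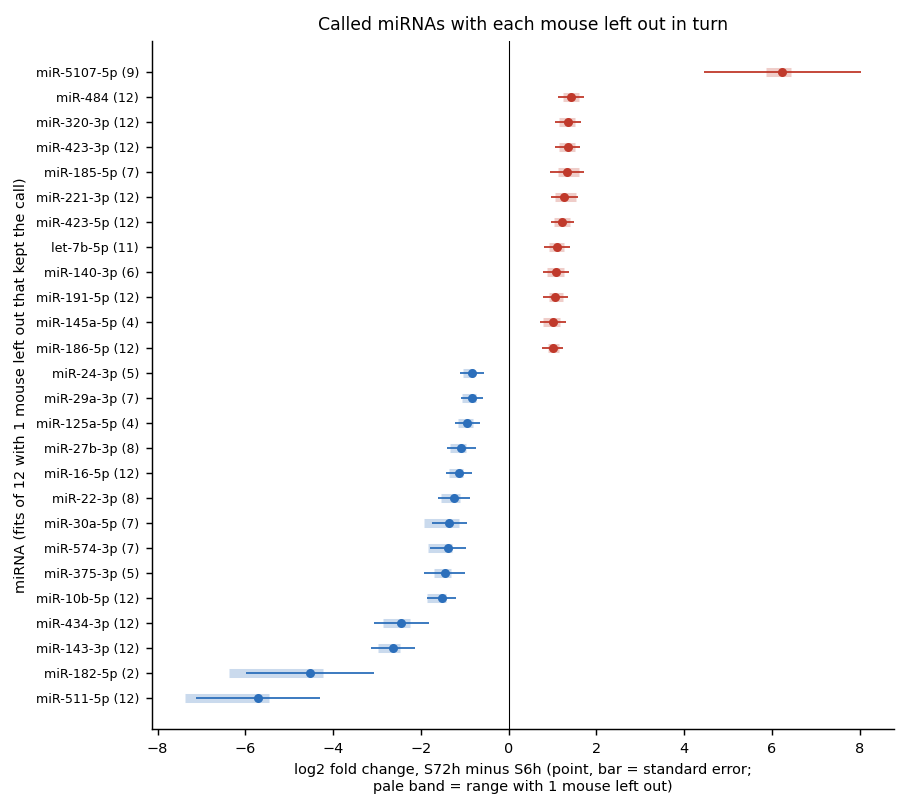
Log2 fold change (S72h minus S6h) of the 26 called miRNAs with its standard error, and as a pale band the range over the 12 fits with 1 mouse left out. The number of these fits that kept the call is in brackets and is 12 for 7 higher and 5 lower miRNAs, 1 of them miR-511-5p, which the filter admitted only through the S6h libraries. No band crosses 0.

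miR-1a-3p, the main miRNA of skeletal and heart muscle and the most abundant of the 266, ranged from 48209 to 261588 CPM (median 96770) at 6 h. At 72 h it was at 223215 CPM in S72h replicate 1 and from 4535 to 49186 CPM in the others, with a group median of 17758. The log2 fold change was -1.38 (SE 0.62, edgeR adjusted p = 0.183). Without S72h replicate 1 it was -2.90 and passed the edgeR threshold, and over the fits with 1 library left out it ranged up to -1.09. miR-133a-3p, miR-206-3p and miR-499-5p had log2 fold changes of -0.74, -1.82 and -2.02 (edgeR adjusted p = 0.556, 0.121 and 0.28). None of the 6 tested muscle miRNAs was called, beside 9.77% of all 266. All 6 had negative values, beside 47.7% of all, and the median was -1.47. Calls were gained for miR-1a-3p with limma-voom, for miR-206-3p in the model of 12 libraries or without S72h replicate 4, and for miR-133a-3p without S72h replicate 1. The summed level of the muscle list ranged from 58632 to 301739 CPM at 6 h and from 6557 to 279432 CPM at 72 h.

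miR-122-5p, the main miRNA of hepatocytes, ranged from 2260 to 33459 CPM (median 13742) at 6 h and from 4296 to 496196 CPM (median 8843) at 72 h. DESeq2 called it higher (adjusted p = 0.0409), as did edgeR without a filter on low counts. Its fitted log2 fold change of 2.71 (SE 1.0, edgeR adjusted p = 0.085) rests on S72h replicate 4. Without that library it was -0.81. The number of calls was 29 without that library and 26 when the counts of miR-122-5p and miR-1a-3p were removed.

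**Figure D4:**
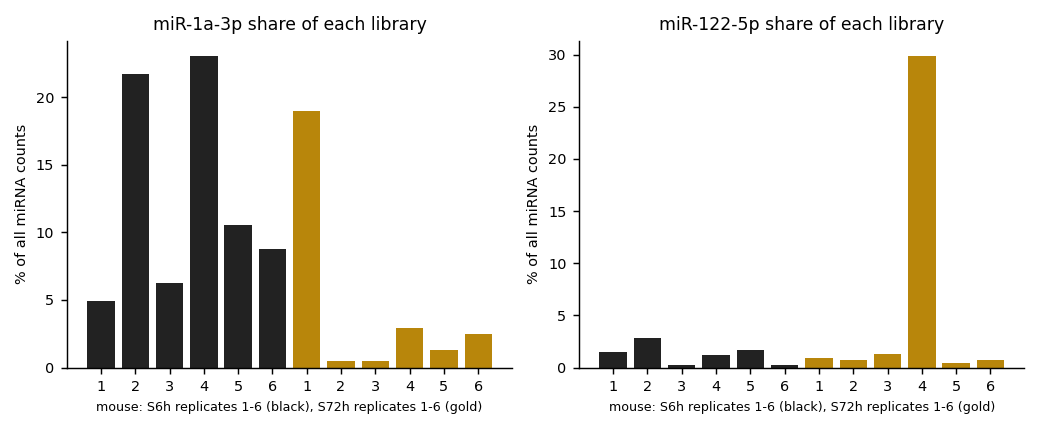
Share of all miRNA counts taken by miR-1a-3p (left) and miR-122-5p (right) in each S6h (black) and S72h (gold) library, in percent. miR-122-5p took 29.8% of S72h replicate 4 and at most 2.83% of any other library, and miR-1a-3p took 19.0% of S72h replicate 1.

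None of the 6 tested red cell miRNAs was called, beside 9.77% of all 266. miR-486b-5p, whose counts are uncertain because of its near-identical copy miR-486a-5p, had 58641 ± 8654 and 43087 ± 20799 CPM (SD, n = 6), a log2 fold change of -0.44 (edgeR adjusted p = 0.617), and miR-451a one of -0.13 (SE 0.41, edgeR adjusted p = 0.949). The 6 tested members had a median of -0.20 and a summed level of 86379 to 127613 CPM at 6 h and 43906 to 162737 CPM at 72 h. miR-21a-5p, induced in many inflamed tissues, had 58451 ± 15522 and 79845 ± 38559 CPM (SD, n = 6), a log2 fold change of 0.45 (edgeR adjusted p = 0.558). Among lists without a call, the 14 tested miRNAs of the miR-17/92 and miR-106b/25 clusters had a median of -0.10 and the 5 brain-enriched miRNAs one of 0.05. The 4 tested miRNAs of the miR-199 and miR-214 cluster had a median of -0.57. Their main member miR-199a-3p had a log2 fold change of -1.07 (SE 0.43, edgeR adjusted p = 0.116). miR-541-5p, another miRNA with a qPCR assay in the study, had one of -0.63 (SE 0.87, edgeR adjusted p = 0.794).

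**Figure D5:**
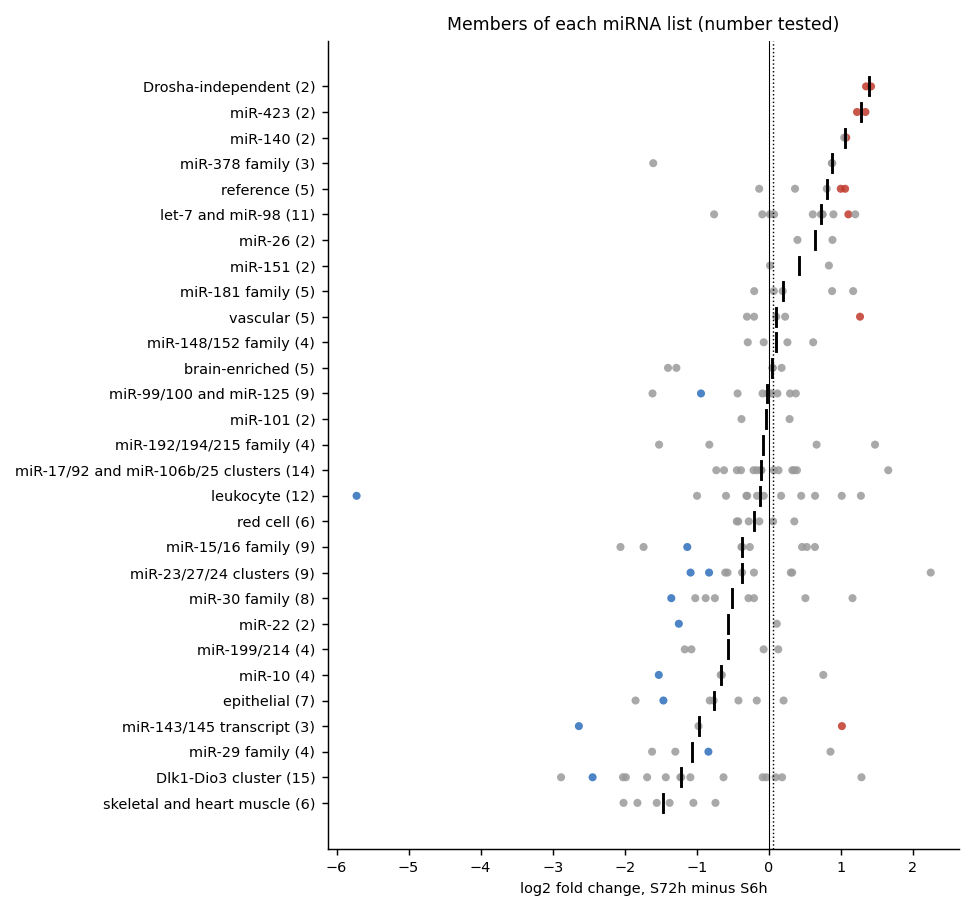
Log2 fold change (S72h minus S6h) of the tested members of each miRNA list with more than 1, in red or blue where called higher or lower, with a black bar at the list median and a dotted line at the median of all 266 miRNAs (0.06). List medians run from -1.47 for skeletal and heart muscle to 1.38 for the Drosha-independent miRNAs.

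The 6 values of the groups did not overlap for 12 of the 266 miRNAs (4.51%), 9 of them higher (3.38%) and 3 lower (1.13%) at 72 h. For miR-5107-5p and miR-511-5p, which are among them, the filter fixed this. By CPM of library totals the number was 5, and 4 of the 12 remained: these 2, miR-434-3p and miR-339-5p. The fifth was miR-30e-5p. Of the 12, 10 were called. The others were miR-339-5p, with 172 to 476 CPM at 6 h and 510 to 969 CPM at 72 h (edgeR adjusted p = 0.0858, called by DESeq2, in the model of 12 libraries and with the filter on mean CPM), and miR-181c-5p, with 181 to 289 and 328 to 753 CPM (edgeR adjusted p = 0.285). miR-339-5p was named after its values were seen.

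The values in the Control and S24h groups place these differences, although all comparisons share libraries with the one above. The miRNAs were chosen for their difference between S6h and S72h, so the medians that follow are descriptions that lean with that choice. Leaving out miR-5107-5p and miR-511-5p, the 11 higher miRNAs had a median log2 difference of -0.21 for S6h minus Control and 0.88 for S72h minus Control, and the 13 lower ones had 0.40 and -0.86. Over all 266 miRNAs these medians were 0.07 and 0.08. For miR-484 the means were 3030 ± 1450 CPM in the Control group and 5962 ± 1028 CPM in the S24h group (SD, n = 6). miR-143-3p had 29143 ± 28571 and 3357 ± 601 CPM in these groups (SD, n = 6). miR-186-5p had 4031 ± 791 and 5468 ± 666 CPM (SD, n = 6), so that its S72h mean was the highest of the 4 groups. miR-10b-5p had 5656 ± 3435 and 4365 ± 1196 CPM (SD, n = 6), and its S72h mean was the lowest.

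GC content of the mature sequence, which can affect the yield of small RNA libraries, had a Pearson correlation of 0.07 and a Spearman correlation of 0.05 with the log2 fold change over the 232 miRNAs with a sequence. These points share libraries and are not independent replicates. The 8 higher miRNAs with a sequence had a median GC content of 54.3% and the 11 lower ones 45.5%, beside 47.6% over the 232.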

How the data were processed

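Small RNA of serum EVs from 24 mice was sequenced by the authors, 1 library per mouse. Per the methods, reads were trimmed with cutadapt, mapped with Bowtie to mm10, selected by length, handled with SAMtools and counted with featureCounts on miRBase mature miRNAs. The deposited table holds raw counts per mature miRNA, and the handling of multi-mapping reads is not given in the sources used here.

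Groups came from the sample labels. Counts were scaled by TMM and fitted over all 24 libraries with the quasi-likelihood test of edgeR 4.0.16 (R 4.3.3), without covariates. Tests covered miRNAs that reached 10 CPM in 6 or more of the 12 S6h and S72h libraries, with Benjamini-Hochberg adjustment. Calls needed a 1.5-fold change or more and an adjusted p below 0.05. The script was tested on simulated data. Alternatives were DESeq2 1.42.0, limma-voom (limma 3.58.1), other scalings, filters and libraries, thinned counts, a replicate block and each library left out. Single values were tested by exact permutation in Python 3.11.15 with numpy 2.4.6, and the Spearman correlation came from scipy 1.17.1. Totals ranged from 65017 to 471801 counts in the 12 libraries, and floors are 3 counts.

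Named miRNAs were the 10 of smallest p in each direction among the calls, called members of the lists and up to 4 of the highest mean CPM in each list described, the 10 of highest mean CPM, the miRNAs with a qPCR assay in the study, and calls with at most 3 counts in every library of 1 group. The members and lists were chosen with earlier results of these data known. Sequences and positions came from RefSeq for GRCm38.p6, and some sequences are not reported here.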

Additional observations from a re-analysis of the deposited data

Results flagged for a closer look

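Within the S6h and S72h groups, 126 sets of 6 values were examined for a library whose gap to the nearest other value was large relative to the range of its group (Dixon's test at 95%). It was so for 14 of them. Independent normal sets would give 6.3, but these sets share libraries and include called miRNAs and very low counts. The 14 therefore cannot be read as an excess. In the S6h group, replicate 3 was the lowest for miR-143-3p (gap of 0.681 of the range), miR-10a-5p (0.678) and miR-182-5p (0.680) and the highest for miR-191-5p (0.668), and replicate 2 was the lowest for miR-574-3p (0.802). In the S72h group, replicate 4 was the highest for miR-122-5p (0.783), miR-182-5p (0.685) and miR-511-5p (1.0, as the other 5 libraries had no count). Replicate 2 was the lowest for miR-434-3p (0.734), miR-339-5p (0.672) and miR-541-5p (0.706), replicate 5 was the lowest for miR-186-5p (0.686) and miR-499-5p (0.688), and replicate 6 had the highest log2 ratio of miR-451a to miR-23a-3p (0.716). The causes were not tested.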

How the results depend on the processing

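No called miRNA changed sign under any setting. The 26 calls became from 13 to 35 when 1 library was left out: 13 without S6h replicate 4 or S72h replicate 5, 14 without S6h replicate 6, 17 without S6h replicate 5 or S72h replicate 2, and 35 without S6h replicate 3. There were 35 calls with DESeq2 and 35 with limma-voom, 2 when the test itself required the 1.5-fold change (miR-143-3p and miR-511-5p, the latter admitted only by the S6h libraries), and 12 without both libraries numbered 4, an alternative added after seeing the data. The settings other than these and the replicate block gave from 22 to 31 calls, and the split of 12 higher and 14 lower became 14 and 12 with RLE scaling, 21 and 14 with DESeq2, 15 and 20 with limma-voom, 19 and 12 with the filter on mean CPM, 14 and 9 without a filter, 12 and 20 with the block, 11 and 19 without S72h replicate 1 and 11 and 6 without S72h replicate 2. With the replicate number as a block there were 32 calls, of which 21 were shared and 11 gained, among them miR-1a-3p, miR-206-3p, miR-499-5p, miR-382-5p, miR-199a-3p and miR-146a-5p. DESeq2 gained 12, limma-voom 10, the filter on mean CPM 9 and the fit without a filter 6. The numbers did not pair the mice, since correlations of same-numbered libraries ran from -0.34 to 0.19 and only those numbered 6 correlated best with each other. Calls lost with the block were miR-24-3p, miR-125a-5p, miR-29a-3p, let-7b-5p and miR-5107-5p. RLE and TMMwsp lost miR-24-3p and miR-125a-5p, library totals lost miR-24-3p, miR-29a-3p and miR-145a-5p, and TMM without the red cell and miR-15/16 lists lost miR-145a-5p. The model of 12 libraries lost miR-27b-3p, miR-24-3p, miR-125a-5p and miR-29a-3p, limma-voom lost miR-375-3p and the filter on mean CPM lost miR-125a-5p and left 3 others untested. Without a filter 9 calls were lost (miR-125a-5p, miR-145a-5p, miR-16-5p, miR-186-5p, miR-24-3p, miR-27b-3p, miR-29a-3p, miR-375-3p and miR-574-3p) and with thinned counts 5 (miR-182-5p, miR-24-3p, miR-27b-3p, miR-375-3p and miR-5107-5p). The miRNAs without overlap between groups fell from 12 to 5 with CPM of library totals. The log2 fold change of miR-122-5p ranged from -0.81 without S72h replicate 4 to 3.18 without S6h replicate 2, and turned to -0.80 without both libraries numbered 4. Those of the miR-877 arms ranged from -0.69 (without S72h replicate 2) to 1.31 for miR-877-5p, which was -0.55 with the block, and from -0.22 (without S72h replicate 5) to 1.32 for miR-877-3p. The difference in the log2 ratio of miR-451a to miR-23a-3p ranged from -0.18 (without S72h replicate 6) to 0.16, with -0.00 without S6h replicate 1. The log2 difference in total counts, S72h against S6h, ranged from -1.10 to -0.60, and passed 0.05 without S6h replicate 5 (-1.04, exact permutation p = 0.0346) or S72h replicate 1 (-1.10, p = 0.0130). The number of miRNAs detected at a common depth, S72h against S6h, differed by -19.2 to -2.70. Depth limits the 44 miRNAs with a median count under 5, 2 of them called. The causes were not tested.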

Other observations

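The ratio of the 5p to the 3p arm, a measure added after seeing the data, was compared for 45 hairpins. These had both arms among the 266 miRNAs, each with a median of at least 5 counts over the 12 libraries. None passed an adjusted p under 0.05 in exact two-sided permutation tests of 6 against 6 mice, but the smallest p these can give, 0.00216, adjusts to 0.0974 for a single hairpin, so that one alone could not pass. The lowest adjusted p, 0.0974, was that of miR-434, with a log2 ratio 3.01 higher at 72 h, and of miR-378a, with one of -2.76. For miR-145a the log2 ratio was 1.82 higher at 72 h (exact permutation p = 0.0108, adjusted p = 0.114).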
